A study of Mus musculus with 2 samples.

Results

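The T and NK lymphocytes of denervated mouse muscle were taken from 2 single-cell RNA-Seq libraries by the genes their barcodes held. Kept barcodes had over 200 genes, and under 10% of their UMIs (unique molecular identifiers, each counting 1 captured RNA molecule) were mitochondrial. Lymphocytes were chosen by measured counts, as kept barcodes with a UMI of at least 2 of 7 genes, *Cd3d*, *Cd3e*, *Cd3g*, *Trbc2*, *Ncr1*, *Gzma* and *Il2rb*, and with no UMI of the 4 myeloid genes *C1qa*, *Csf1r*, *Cd209a* and *Siglech*. This gave 107 lymphocytes of 48143 kept barcodes, 45 in the IgG library and 62 in the SPP1-nAb library. The study asked what secreted phosphoprotein 1 (SPP1, osteopontin) does in muscle reinnervation. Bilateral peroneal nerve crush was performed in young adult male mice of the S100GFP-tg Schwann cell reporter line, which the labels give as C57BL/6J. At the injury and every 2 days after it the tibialis anterior received 2 μg of antibody in 10 μL. The IgG group was given goat anti-mouse IgG and the SPP1-nAb group an SPP1-neutralizing antibody, and muscle was taken at 7 days post injury (dpi). Live cells were then sorted, GFP+ and GFP- fractions according to the protocol, whereas the sample titles name only GFP-positive cells, and the labels name tibialis anterior and gastrocnemius muscles. There was 1 library per condition, from pooled mice whose number is not given in the sources used here, and so no difference between conditions has a replicate check. Every interval below is a 95% exact interval that covers counting error only, not the spread between cells or animals. Values joined by "and" are IgG, then SPP1-nAb, and log2 ratios are of SPP1-nAb to IgG, unless stated.

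T cells carry a T cell receptor, built from alpha and beta or from gamma and delta chains, that reaches the cell surface together with the CD3 proteins and signals through them. NK cells are innate lymphocytes without a rearranged receptor. They read their targets through germline-encoded receptors such as NKp46 (*Ncr1*) and the Ly49 family (*Klra* genes), kill through perforin and granzymes, and secrete interferon gamma and chemokines. Gamma-delta T cells reside in many tissues, where a subset that expresses the receptor for interleukin-23 is a source of interleukin-17.

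Promoter sequence of the lymphocyte genes is shown because runt-domain (RUNX) transcription factors are known regulators of T and NK cell genes. The 250 bases before each start were searched, on both strands, for the letters TGTGGT (RUNX core, ACCACA on the other strand) in the RefSeq promoter table of build GRCm38.p6. Of 22 genes, the 7 of the rule and the 15 with the highest ratio to the other barcodes, 16 had an entry, with 19 entries in all. The RUNX core letters stood in 9 of the 19 entries (47.4%) and in 8 of the 16 genes (*Ncr1*, *Gzma*, *Klra1*, *Klrc1*, *Gimap7*, *Prf1*, *Gm19585* and *Nkg7*), against 14.0% of all 32851 promoters. The windows below give 20 bases on each side of the match, 5′ to 3′ on the gene's strand, with the match in capitals. They are *Ncr1* (chr7:4337519-4337564, + strand), *Ncr1* again (chr7:4337654-4337699, + strand), *Gzma* (chr13:113101006-113101051, - strand), *Prf1* (chr10:61297686-61297731, + strand) and *Nkg7* (chr7:43437035-43437080, + strand).
Ncr1, upstream match: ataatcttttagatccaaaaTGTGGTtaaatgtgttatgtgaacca
Ncr1, downstream match: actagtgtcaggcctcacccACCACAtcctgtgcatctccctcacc
Gzma: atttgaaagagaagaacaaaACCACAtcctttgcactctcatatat
Prf1: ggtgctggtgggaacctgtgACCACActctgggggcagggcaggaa
Nkg7: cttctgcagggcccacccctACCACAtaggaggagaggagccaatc
The downstream *Ncr1* match and the *Gzma* match share the 10-letter run ACCACATCCT, which 20 of the 32851 promoters held (0.0609%). That run was chosen after the sequences were seen. The T-box letters GGTGTGA were in 1 gene (*Nkg7*, 3.33% of all promoters), the GATA letters AGATAA in 2 genes (*Cd3g* and *Klra7*, 9.99%), and the AP-1 letters TGACTCA in 0 of the 19 entries (4.46%). A match describes the letters in the window and is not a measured binding site.

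The lymphocytes were few in both libraries. They made up 0.192% (0.140 to 0.257) of 23385 kept IgG barcodes and 0.250% (0.192 to 0.321) of 24758 kept SPP1-nAb barcodes. The difference was 0.0580 percentage points (-0.0294 to 0.146), within counting error. Among kept barcodes with a UMI of *Ptprc*, which encodes the pan-leukocyte protein CD45, the shares were 0.309% and 0.341%. The sort and its fractions can set these shares. The SPP1-nAb value was the higher under each of the 10 settings plotted below. The difference passed its counting interval under 2 of them, with at least 3 of the 7 genes required (0.103% and 0.186%) and with the 4 excluding genes dropped (0.218% and 0.331%). The libraries shared 163 barcode sequences, 1 lymphocyte barcode also occurred in the other library, and 0 were lymphocytes in both.

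**Figure D1:**
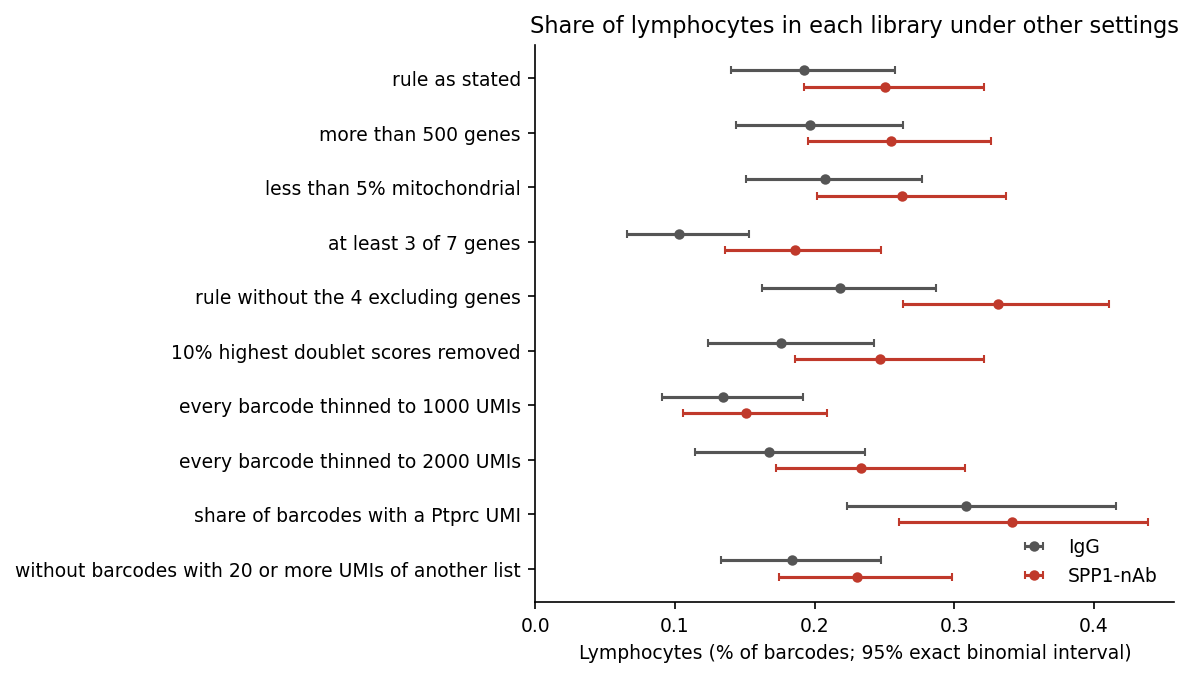
Lymphocytes as a percent of kept barcodes, in 1 setting of those with a *Ptprc* UMI (x axis), in the IgG and SPP1-nAb libraries under 10 settings of the rule (y axis), with exact 95% intervals as bars. The SPP1-nAb point lies to the right of the IgG point in every row, and the bars overlap.

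The files held 97607674 UMIs in the IgG library and 127719916 in the SPP1-nAb library. Lymphocytes held 984 to 13718 UMIs (median 3396) with IgG and 1462 to 14565 (median 4573) with SPP1-nAb, and a median of 1520 and 1898 genes. Depth therefore differed between the libraries in the direction that raises detection with SPP1-nAb. When all barcodes were thinned to 1000 UMIs, the shares of lymphocytes were 0.135% and 0.151%.

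The barcodes on either side of the rule's edge are given as a description. Lymphocytes with exactly 2 of the 7 genes numbered 21 with IgG and 16 with SPP1-nAb, and held *Ptprc* at 1620 and 1594 CPM (UMIs per 1000000 UMIs of the summed cells). The 16 and 33 barcodes with exactly 1 of the 7 genes and no UMI of an excluding gene held 295 and 323 CPM. All other barcodes, which were not held to the latter condition, stood at 485 and 499 CPM. The granule membrane gene *Nkg7*, which the rule did not use, stood at 1117 and 931 CPM just inside and at 154 and 113 CPM just outside. A further 6 and 20 barcodes met the 2-gene minimum but held a UMI of an excluding gene, with *Ptprc* at 1569 and 1320 CPM and the myeloid gene *Lyz2* at 1622 and 1616 CPM.

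Genes outside the rule also marked these barcodes as T and NK lymphocytes. The 15 genes with the highest ratio to all other barcodes were *Klra8*, *Ifng*, *Klra1*, *Klrc1*, *Gimap7*, *Prf1*, *Trbc1*, *Klra4*, *Gm19585*, *Nkg7*, *Klra7*, *Eomes*, *Sh2d1a*, *Gm2682* and *Ctsw*. They encode NK receptors, the T cell receptor beta constant region, perforin, interferon gamma and the NK transcription factor EOMES among others, and they are given as a description, since the rule chose these cells. *Nkg7* stood at 1089 CPM with IgG and 964 CPM with SPP1-nAb and was found in 35 of 45 and 46 of 62 cells. In macrophage-gated barcodes, with median depths of 4241.5 and 5533 UMIs, a *Nkg7* UMI was found in 0.0253% and 0.0896%. *Eomes* was found in 17 and 30 lymphocytes (187 and 216 CPM), and in 0% and 0.0498% of the macrophage gate. *Ccl5*, a chemokine of cytotoxic lymphocytes, was found in 62.2% and 62.9% of lymphocytes and in 4.25% and 5.98% of the macrophage gate.

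Of the genes of the rule, each CD3 gene was held by fewer lymphocytes than the others. *Trbc2*, the T cell receptor beta constant region, was found in 23 and 36 cells (264 and 395 CPM). *Gzma*, a granule protease, was found in 24 and 36 cells (1244 and 1356 CPM) and *Il2rb*, the interleukin-2 and interleukin-15 receptor beta chain, in 33 and 46 cells (384 and 377 CPM). *Ncr1* was found in 19 and 30 cells (202 and 198 CPM). *Cd3d* was found in 9 and 14 cells, *Cd3e* in 10 and 13, and *Cd3g* in 9 and 13. The CD3 genes lie side by side in GRCm39, *Cd3g* at chr9:44880870-44891735, *Cd3d* at chr9:44893083-44899173 and *Cd3e* at chr9:44910037-44920925. The 5 *Klra* and *Klrc* genes among the 15 above lie within 721 kb of the NK gene complex, at chr6:129642978-130363837. The *Klra* genes are near-identical copies, so how their UMIs divide between members is uncertain.

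**Figure D2:**
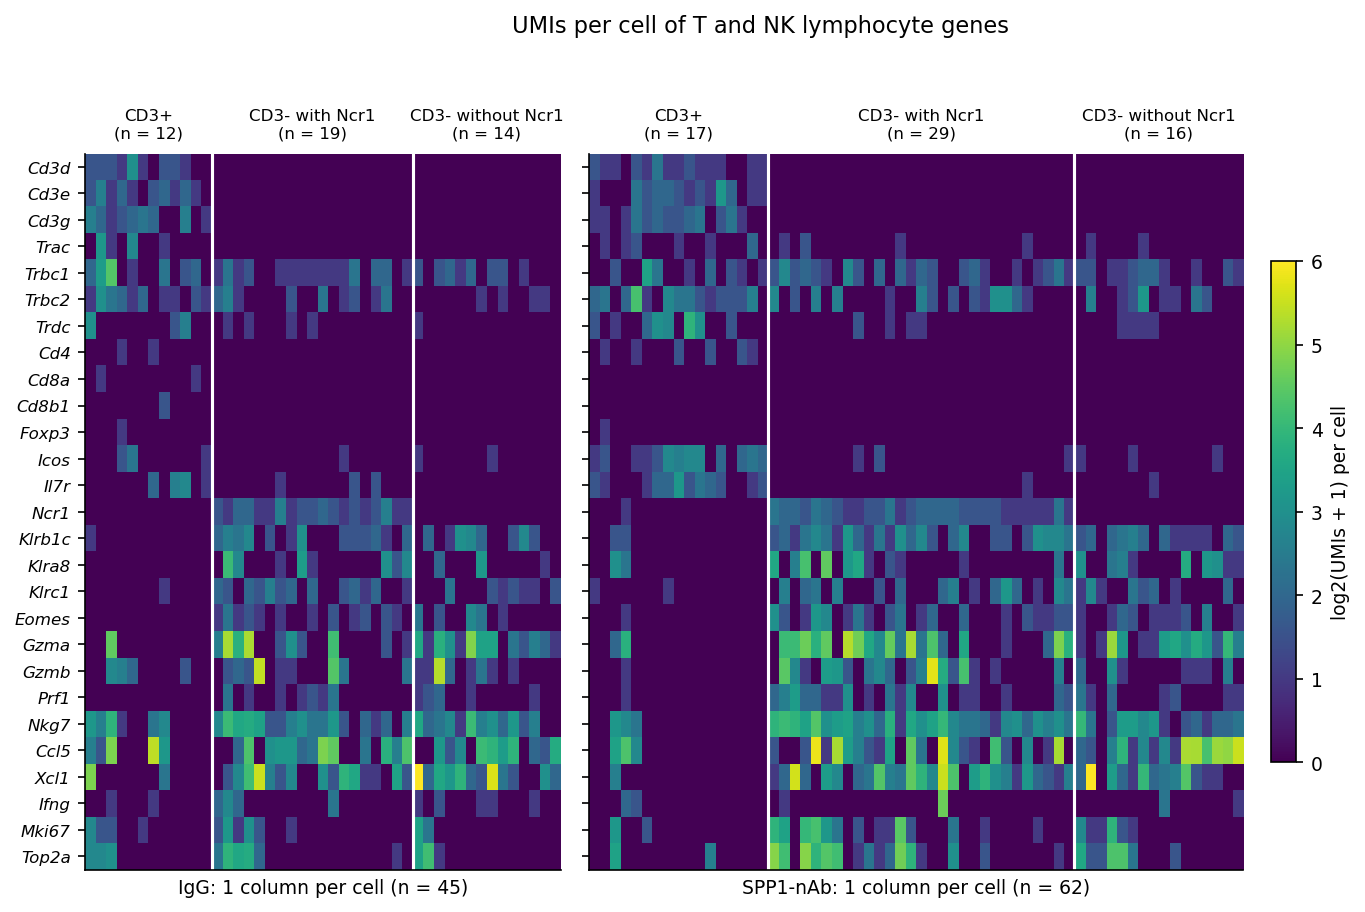
Heat map of log2(UMIs + 1) (color) for 27 genes (rows) in each of the 45 IgG and 62 SPP1-nAb lymphocytes (columns), ordered by class. CD3 genes fill 12 and 17 columns, whereas *Gzma*, *Nkg7* and *Ccl5* extend over most of the other columns.

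Most lymphocytes of both libraries held no CD3 UMI. With CD3+ meaning a UMI of *Cd3d*, *Cd3e* or *Cd3g*, 12 of 45 IgG lymphocytes were CD3+ (26.7%, 14.6 to 41.9) and 17 of 62 SPP1-nAb lymphocytes (27.4%, 16.9 to 40.2). The difference was 0.753 percentage points (-17.8 to 18.3). CD3- cells with *Ncr1* made up 42.2% and 46.8%, and CD3- cells without *Ncr1* 31.1% and 25.8%. A UMI of *Ncr1*, *Klrb1c* (NK1.1) or *Eomes* was found in 31 of 45 (68.9%) and 45 of 62 (72.6%) lymphocytes, and *Ncr1* stood beside a CD3 UMI in 0 and 1 cell. At these depths a missing UMI does not show that a gene was not expressed, and *Trbc2* was found in 13 and 22 of the CD3- cells. Over all lymphocytes, *Trbc2* stood beside *Ncr1* in 9 and 15 cells, so a *Trbc2* UMI does not by itself mark a T cell here. After thinning to 1000 UMIs, CD3- cells with *Ncr1* were 18.2% and 11.3% and those without it 63.6% and 71.0%. With at least 3 of the 7 genes required, those without it were 8.33% and 13.04%, so the order of the libraries was the other way round.

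The CD3+ cells fell into small sets by the genes of their lineages. *Cd8a* or *Cd8b1* was found in 3 IgG cells and in 0 of 62 SPP1-nAb lymphocytes, with an exact upper limit of 5.78% on cells with a UMI, not on cells that express the genes. After thinning to 1000 UMIs it was found in 1 IgG cell. *Cd4* was found in 2 and 6 CD3+ cells, 1 of which in each library also held the regulatory T cell factor *Foxp3*. The SPP1-nAb barcode with *Foxp3* held 138 UMIs of the dendritic list and 28 of the macrophage list. *Trdc*, the delta chain constant region, was found in 3 of 12 and 8 of 17. The other 4 and 3 CD3+ cells held none of these genes.

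CD3+ and CD3- cells are described here without a test. The rule admits CD3- cells only through *Trbc2*, *Ncr1*, *Gzma* or *Il2rb*, and the single genes below were picked because they were higher in the same class in both libraries. The list of NK receptors and factors summed to 2582 CPM in CD3+ and 8860 CPM in CD3- cells with IgG, and to 2131 and 8462 CPM with SPP1-nAb. Perforin (*Prf1*) had 0 UMIs in CD3+ and 22 in CD3- cells with IgG, and 1 and 72 with SPP1-nAb. *Eomes* had 0 and 36 UMIs with IgG and 1 and 70 with SPP1-nAb. *Klrb1c* had 1 and 71 UMIs with IgG and 4 and 126 with SPP1-nAb. These genes were thus at or near 0 in CD3+ cells. *Il7r*, the interleukin-7 receptor of T cells, lay the other way, at 340 and 33.6 CPM with IgG and 509 and 7.51 CPM with SPP1-nAb. The T cell adaptor *Grap2* stood at 634 and 33.6 CPM with IgG and at 429 and 48.8 CPM with SPP1-nAb. *Ifi27l2a*, an interferon-induced gene, stood at 1065 and 33.6 CPM with IgG and at 1002 and 97.7 CPM with SPP1-nAb. It was found in 4 of 12 and 6 of 17 CD3+ cells, and 1 cell held 21 of the 47 CD3+ UMIs with IgG and 1 held 45 of 63 with SPP1-nAb. The CD3+ cells with SPP1-nAb held the cell cycle list at 2402 CPM against 6651 CPM in the CD3- cells, a gap that was 4531 against 5095 CPM with IgG. The mesenchymal list stood at 9854 CPM in CD3+ and 491 CPM in CD3- cells with IgG and at 6394 and 567 CPM with SPP1-nAb, but 1 barcode held 432 of the 435 CD3+ UMIs with IgG and 1 held 394 of 402 with SPP1-nAb. Its part in the other CD3+ values was not tested.

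Gamma-delta genes were higher in the SPP1-nAb library than in the IgG library, and this rested on few cells. The list summed to 259 CPM with IgG and 584 CPM with SPP1-nAb (log2 ratio 1.17, 0.72 to 1.65). In CD3+ cells it stood at 793 CPM (552 to 1103) and 2450 CPM (2078 to 2869), and in CD3- cells at 101 and 143 CPM. *Trdc* (chr14:54380308-54386325, GRCm39) had 19 and 51 UMIs in all lymphocytes (log2 ratio 0.65, -0.13 to 1.497). *Cd163l1* (chr7:139798180-139811058), a scavenger receptor of gamma-delta T cells, had 3 and 32 UMIs (log2 ratio 2.64, 0.97 to 5.00), all in CD3+ cells. *Tcrg-C1* (chr13:19398273-19401194), a gamma chain constant region, had 1 and 23 UMIs (log2 ratio 3.75, 1.13 to 9.12). *Tcrg-C2* ran opposite, at 6 and 1 UMIs, and its sequence is close to that of its neighbors. The interleukin-23 receptor *Il23r* had 1 and 12 UMIs and *Il17a* 1 and 10, of which 8 were in 1 cell. That SPP1-nAb barcode held 14565 UMIs, 394 of them of the mesenchymal list.

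Counted by cells, the same genes gave wide intervals. *Cd163l1* was found in 2 of 12 CD3+ cells with IgG and 8 of 17 with SPP1-nAb, 30.4 percentage points apart (-9.45 to 59.4). *Trdc* and *Cd163l1* were found together in 2 and 7 cells. *Icos*, a costimulator of activated T cells, was found in 3 of 12 and 13 of 17 (51.5 points, 9.86 to 77.2), and beside *Trdc* in 0 and 6 cells. The IgG cell with the most *Trdc* (7 UMIs) held 13718 UMIs, 432 of them of the mesenchymal list, and 0 of every other gene plotted. An SPP1-nAb cell with 2 *Trdc* UMIs held 14565 UMIs, 394 of them mesenchymal. Without the 7 barcodes that held 20 or more UMIs of any other cell type's list, a setting added after the data were seen, the gamma-delta log2 ratio was 1.34.

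**Figure D3:**
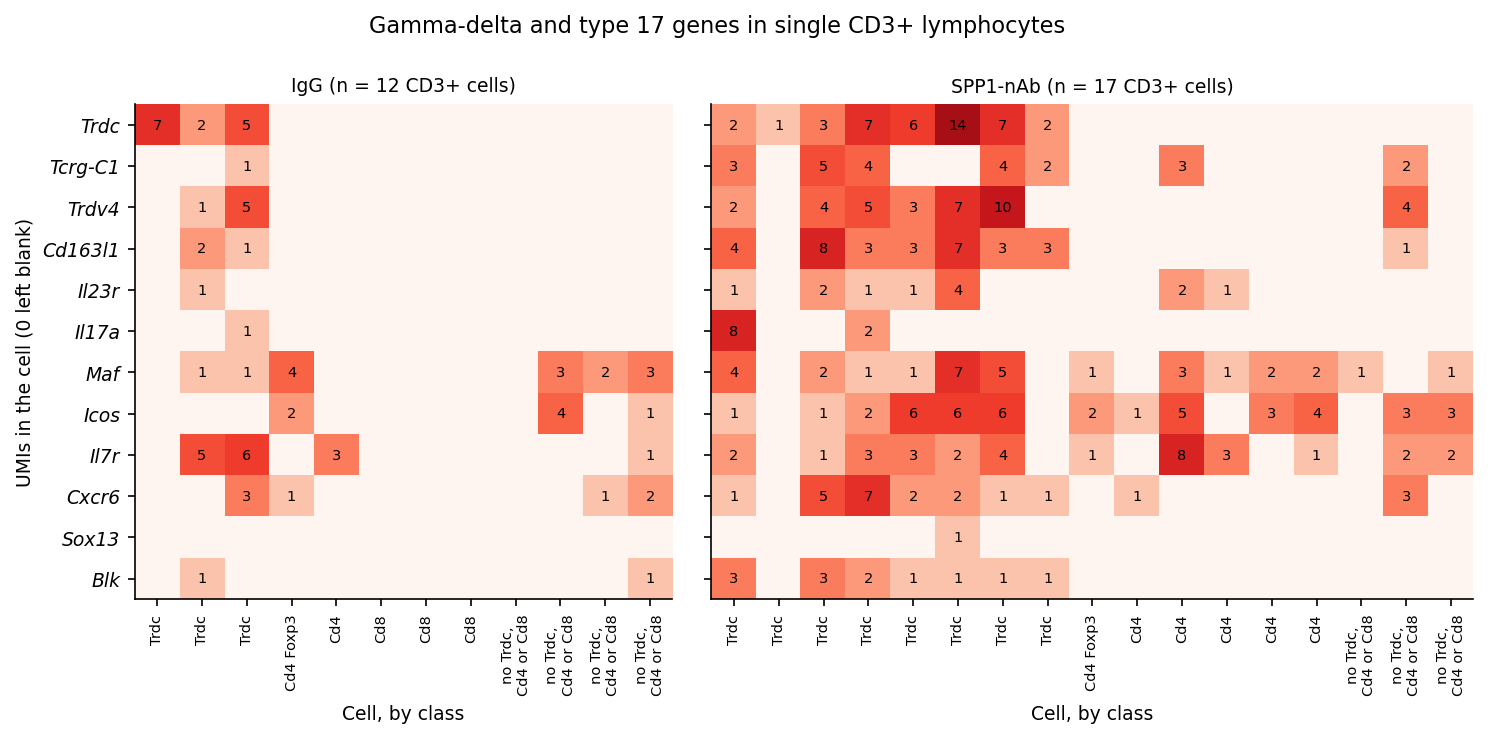
UMIs (number and color) of 12 gamma-delta and type 17 genes (rows) in each of the 12 IgG and 17 SPP1-nAb CD3+ cells (columns). With IgG, 2 columns hold *Trdc* together with *Cd163l1*, and with SPP1-nAb 7 do.

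The NK receptor list stood at 7423 CPM with IgG and 7252 CPM with SPP1-nAb, a difference within counting error (log2 ratio -0.03, -0.13 to 0.06). Its log2 ratio was -0.20 without the 10% highest doublet scores and -0.25 after thinning each cell to 1000 UMIs. Genes were compared when they had at least 40 UMIs over both libraries and a UMI in at least 15 lymphocytes. Of 2283 such genes 238 were at least 1.5-fold higher in SPP1-nAb, 10.4 percent, and 148 at least 1.5-fold lower, 6.48 percent. The median log2 ratio was 0.04. Of the 15 NK genes compared, 2 were past that fold higher, the killer cell lectin-like receptor *Klri2* (119 and 219 CPM, log2 ratio 0.88, 0.18 to 1.62) and the Ly49 gene *Klra4* (228 and 389 CPM, 0.77, 0.27 to 1.30). The activating receptor NKG2D (*Klrk1*) was past it lower, at 809 and 538 CPM (-0.59, -0.91 to -0.27). *Klrb1c*, *Klrd1*, *Fcer1g*, *Tyrobp* and *Eomes* lay within counting error.

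The cytotoxic granule list was at 4240 and 3726 CPM (log2 ratio -0.19, -0.32 to -0.06), and its members did not lie on the same side. Perforin was the higher with SPP1-nAb, at 114 and 222 CPM (log2 ratio 0.96, 0.26 to 1.72), in 12 of 45 and 26 of 62 cells. *Gzmb* was the lower, at 762 and 544 CPM (-0.49, -0.81 to -0.16), in 21 and 26 cells, but its log2 ratio was 0.44 with at least 3 of the 7 rule genes required. *Nkg7* stood at 1089 and 964 CPM. *Gzma*, a gene of the rule that the list leaves out, stood at 1244 and 1356 CPM. The most abundant gene of the list was *Srgn*, and the list stood at 1994 and 2376 CPM in all other barcodes. Perforin was 1 of 7 compared genes past 1.5-fold higher, and 0 were past it lower. Of all genes compared, 10.4 percent were past it higher and 6.48 percent lower. With at least 3 of the 7 rule genes required the list's log2 ratio was 0.13.

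The single genes with the largest ratios of SPP1-nAb to IgG, among those more abundant in lymphocytes than in other barcodes, were *Nrgn*, *Icos*, *Trdv4*, *Akap8*, *Galnt7*, *Rasa2*, *Cbx5*, *Tacc3*, *Rbm42* and *Cemip2*. *Nrgn*, a calmodulin-binding protein, stood at 57.0 and 204 CPM (log2 ratio 1.84, 0.91 to 2.91), in 9 and 25 cells. *Icos* stood at 51.8 and 152 CPM (1.55, 0.56 to 2.70), in 6 and 19 cells. *Trdv4*, a delta chain variable segment, stood at 62.2 and 170 CPM (1.45, 0.54 to 2.49), in 8 and 22 cells. In both libraries most of the cells with a *Trdv4* UMI held no CD3 UMI, so they are not a count of gamma-delta T cells. The smallest ratios were those of *Ifi206*, *Spry2*, *Gpr174*, *Ly6c2*, *Zbp1*, *Iqgap2*, *Ms4a4b*, *Ppp3cc*, *Abcb1b* and *Trim30a*. For *Abcb1b* the log2 ratio was -0.20 without the 10% highest doublet scores and -0.21 after thinning to 1000 UMIs. *Spry2*, a feedback inhibitor of receptor tyrosine kinase signaling, stood at 487 and 167 CPM, in 28 and 29 cells. *Ms4a4b*, a membrane protein of T and NK cells, stood at 1877 and 875 CPM (log2 ratio -1.10, -1.33 to -0.87), in 41 and 47 cells. *Ifi206*, *Zbp1* and *Trim30a* are interferon-induced genes. Of the genes past 1.5-fold, 102 higher and 73 lower had an interval that left out 0.

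**Figure D4:**
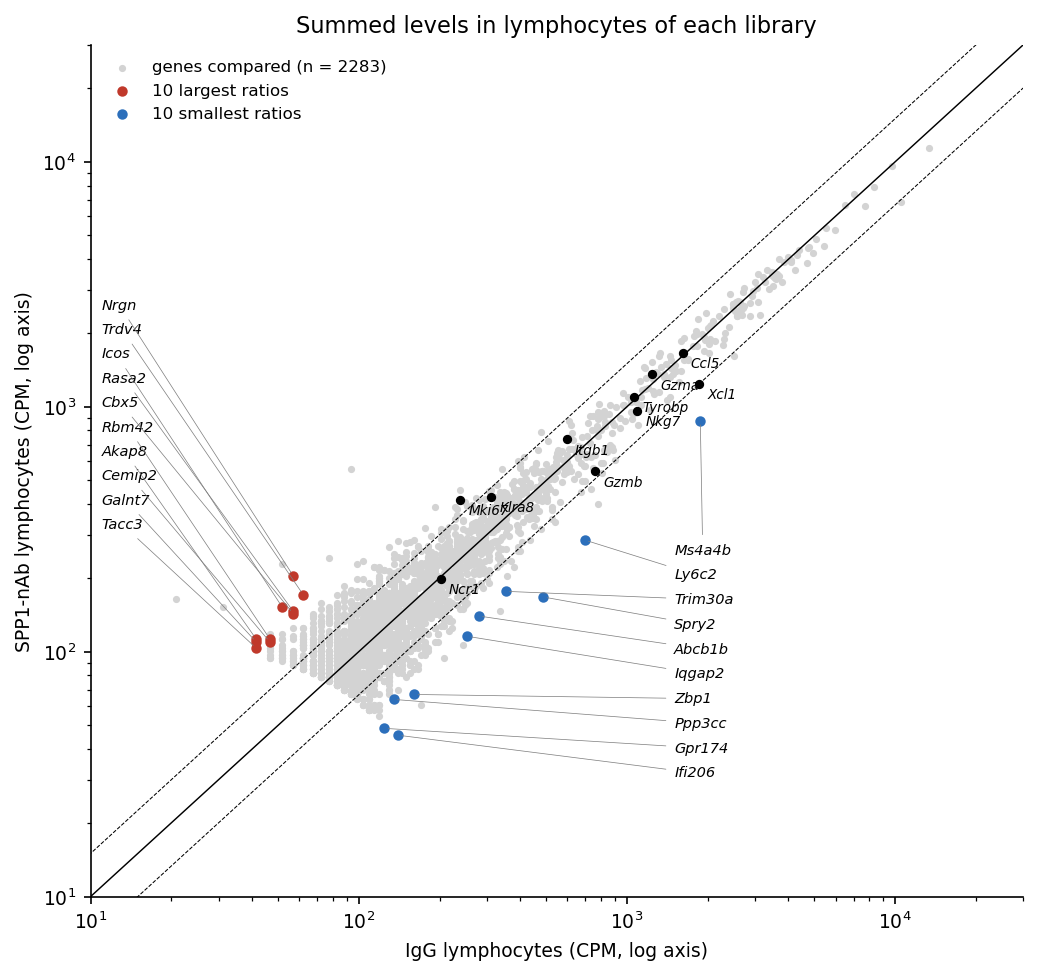
CPM in the IgG library (x axis, log scale) against CPM in the SPP1-nAb library (y axis, log scale) for the 2283 genes compared, 1 point per gene, with 1.5-fold lines dashed. Labels mark the 10 largest and 10 smallest ratios among genes more abundant in lymphocytes than in other barcodes. They run from *Nrgn* above the diagonal to *Ifi206* below it.

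The lists of T cells other than the gamma-delta list gave a mixed picture. T cell receptor and signaling genes summed to 2727 and 2219 CPM (log2 ratio -0.30, -0.46 to -0.13), with a log2 ratio of -0.0125 after thinning to 1000 UMIs. Of 10 compared, the zeta chain *Cd247* was past 1.5-fold higher (67.4 and 131 CPM) and *Trbc1* past it lower (435 and 286 CPM). Over all genes compared, 10.4 percent were past that fold higher and 6.48 percent lower. *Themis*, a thymocyte selection protein found in CD3+ cells of both libraries, had 13 and 3 UMIs, in 5 and 3 cells. The CD4 list stood at 124 and 228 CPM, with *Icos* at 10 of its 24 UMIs with IgG and 50 of 75 with SPP1-nAb, and *Cd4* at 2 and 9 UMIs. In the regulatory T cell list, 529 and 480 CPM, *Ctla4* had 21 and 9 UMIs and *Foxp3* 1 and 1. Naive and central memory genes stood at 1130 and 881 CPM, with the quiescence factor *Klf2* at 207 and 94.2 CPM (log2 ratio -1.14, -1.86 to -0.42). The tissue residence list stood at 2836 and 2131 CPM, a log2 ratio of -0.41 that was 0.13 with at least 3 of the 7 rule genes required and -0.13 after thinning to 1000 UMIs. Its member *Cd69* stood at 238 and 149 CPM (-0.68, -1.29 to -0.07), and at a log2 ratio of -0.0353 after thinning. Inhibitory receptors stood at 410 and 450 CPM, with *Tox*, a transcription factor of activated and exhausted T cells, at 207 and 195 CPM and *Pdcd1* at 2 and 7 UMIs.

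Innate lymphoid cells of type 2 were looked for among the same barcodes. *Il5*, *Il13*, *Il17rb*, *Ccr8* and *Hey1* had 0 UMIs in both libraries, and *Il1rl1*, the interleukin-33 receptor, had 0 and 5. The list sum of 311 and 432 CPM was mostly *Rora* (244 and 344 CPM), which other lymphocytes also express. The rule does not ask for genes of these cells.

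Chemokine ligands stood at 4671 and 3769 CPM, near the level of the granule list. The log2 ratio of -0.31 was 0.29 with at least 3 of the 7 rule genes required and -0.00261 after thinning to 1000 UMIs. *Ccl5* stood at 1612 and 1660 CPM (log2 ratio 0.04, -0.16 to 0.25). *Xcl1*, which attracts cross-presenting dendritic cells, stood at 1856 and 1240 CPM (-0.58, -0.79 to -0.37), in 29 and 40 cells. Its log2 ratio was 0.36 with at least 3 of the 7 rule genes required and -0.21 after thinning to 1000 UMIs. *Ccl4* stood at 736 and 626 CPM and *Ccl3* at 254 and 173 CPM, both with intervals that held 0. Their log2 ratios were 0.48 and 0.85 with at least 3 of the 7 rule genes and -1.96 and -1.74 without the 10% highest doublet scores. *Cxcl10*, an interferon-induced chemokine, had 41 UMIs in 8 IgG cells and 5 UMIs in 4 SPP1-nAb cells. *Ifng* had 24 UMIs in 11 IgG cells and 35 UMIs in 6 SPP1-nAb cells, 24 of them in 1 cell. *Areg*, the epidermal growth factor receptor ligand of tissue regulatory T cells, had 1 and 17 UMIs, in 1 and 4 cells. *Il2*, *Il4*, *Il21* and *Csf2* had 0 UMIs in both libraries. Among chemokine receptors *Ccr2* stood at 399 and 407 CPM and *Cxcr4* at 176 and 152 CPM, both with intervals of the ratio that held 0. The list of receptors that use the common gamma chain and of related interleukin receptors stood at 1094 and 1027 CPM. Of its 5 compared genes 0 were past 1.5-fold, beside 10.4 percent higher and 6.48 percent lower of all genes compared.

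SPP1 is the target of the neutralizing antibody, and lymphocytes carry its receptors. The list held *Spp1*, its CD44 and integrin receptors and also the lymphocyte factors *Eomes* and *Tbx21*. It stood at 1757 and 2027 CPM (log2 ratio 0.21, 0.02 to 0.40), a sum that is therefore not of *Spp1* and its receptors alone. Of its 7 compared genes 0 were past 1.5-fold, beside 10.4 percent higher and 6.48 percent lower of all genes compared. The integrin beta 1 chain *Itgb1* stood at 596 and 736 CPM and was found in 84.4% and 90.3% of lymphocytes and in 85.2% and 93.4% of the *Pdgfra*-gated mesenchymal barcodes (the *Pdgfra* gate), whose median depths of 5422 and 8399 UMIs were above the 3396 and 4573 of the lymphocytes. With each cell thinned to 1000 UMIs the shares were 45.5% (30.4 to 61.2) and 50% (37.0 to 63.0) of lymphocytes against 35.5% and 36.2% of the *Pdgfra* gate. The alpha 4 chain *Itga4* stood at 218 and 283 CPM, in 40% and 56.5% of lymphocytes, 43.8% and 43.7% of the macrophage gate and 1.51% and 1.41% of the *Pdgfra* gate. Thinned, it was in 15.9% (6.64 to 30.1) and 27.4% (16.9 to 40.2) of lymphocytes, against 14.6% and 11.2% of the macrophage gate, so that its share was above that gate's beyond counting error with SPP1-nAb but not with IgG. *Cd44* was found in 35.6% and 45.2% of lymphocytes, 76.3% and 88.5% of the macrophage gate and 47.8% and 78.6% of the *Pdgfra* gate. Thinned, it was in 9.09% (2.53 to 21.7) and 11.3% (4.66 to 21.9) of lymphocytes, below the 42.2% and 52.4% of the macrophage gate, with 16.1% and 29.1% in the *Pdgfra* gate. It stood at 135 and 198 CPM and *Itgav* at 104 and 125 CPM. *Spp1* itself stood at 207 and 167 CPM in 8 and 16 cells, 17.8% and 25.8% of lymphocytes, and 1 cell held 22 of the 40 UMIs with IgG and 1 held 17 of 55 with SPP1-nAb. Without these cells, a setting chosen after seeing the data, the levels were 98.6 and 120 CPM and their order turned. It was also found in 9.18% and 14.6% of the *Pdgfra* gate and in 22.4% and 38.5% of the macrophage gate, so that free RNA cannot be told apart from expression in these few cells. *Gfp*, the reporter, was found in 13.3% and 9.68% of lymphocytes, 17.2% and 22.3% of the *Pdgfra* gate and 42.5% and 58.1% of the macrophage gate. Thinned, it was in 4.55% (0.555 to 15.5) and 1.61% (0.0408 to 8.66) of lymphocytes. The *Pdgfra* gate, at 4.43% and 4.74%, was within counting error of these shares. The macrophage gate, at 15.1% and 19.6%, was above the lymphocytes beyond counting error with SPP1-nAb but not with IgG.

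Summed over all lymphocytes, the interferon list was lower and the cell cycle list higher with SPP1-nAb, the latter not in every class. The interferon list stood at 2530 and 1660 CPM (log2 ratio -0.61, -0.79 to -0.43), and at 3029 and 2235 CPM in all other barcodes, with 3 of 7 compared genes past 1.5-fold lower, *Ly6c2*, *Bst2* and *Xaf1*, beside 6.48 percent of all genes compared. *Ly6c2* stood at 695 and 286 CPM in 13 and 13 cells, and *Bst2* (tetherin) at 337 and 146 CPM (-1.21, -1.78 to -0.65) in 22 and 26 cells. *Isg15*, at 430 and 356 CPM, and *Ifi27l2a*, at 270 and 271 CPM, lay within counting error with all lymphocytes. Without the 7 barcodes with another cell type's genes their log2 ratios were -1.17 and -1.25, and *Isg15* was at 1.00 with at least 3 of the 7 rule genes. Of the 207 interferon UMIs of the CD3+ SPP1-nAb cells, 136 were in 1 cell. Without the 7 barcodes the list's log2 ratio was -1.32, and with equal weights of the lymphocyte classes it was -0.36. The cell cycle list stood at 4966 and 5839 CPM (log2 ratio 0.23, 0.12 to 0.35), with 4 of 9 past 1.5-fold higher, beside 10.4 percent of all genes compared, and 0 lower. By class it was higher with SPP1-nAb in CD3- cells with *Ncr1* (5269 and 7464 CPM), near level in CD3- cells without it (4810 and 4830 CPM) and lower in CD3+ cells (4531 and 2402 CPM), where 1 cell held 73 of 200 UMIs with IgG and 1 held 85 of 151 with SPP1-nAb. *Mki67* stood at 238 and 416 CPM (0.80, 0.31 to 1.32) and topoisomerase *Top2a* at 477 and 787 CPM (0.72, 0.37 to 1.08). A UMI of either was found in 14 of 45 (31.1%) and 27 of 62 (43.5%) lymphocytes, a difference of 12.4 percentage points (-7.54 to 30.9). *Hmgb2* stood at 2519 and 2465 CPM. Cells with *Mki67* or *Top2a* had median depths of 6890 and 6817 UMIs, above those of the lymphocytes as a whole.

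Immediate early genes, which tissue digestion can also induce, stood at 4722 and 4280 CPM (log2 ratio -0.14, -0.26 to -0.02). Of 9 compared, *Fos* (736 and 462 CPM) and *Egr1* (301 and 198 CPM) were past 1.5-fold lower, beside 6.48 percent of all genes compared. By class the list was higher with SPP1-nAb in CD3+ cells (4802 and 6999 CPM) and lower in CD3- cells (4699 and 3637 CPM). Among the CD3+ cells 1 held 102 of 212 UMIs with IgG and 1 held 170 of 440 with SPP1-nAb. The sign of the list turned under 4 settings, to between 0.0234 and 0.18. Without the 10% highest doublet scores the log2 ratio was 0.93 for *Egr1* and -0.23 for *Fos*. MHC class I genes stood at 7278 and 6957 CPM (-0.06, -0.16 to 0.03). Among 5 compared, the immunoproteasome subunit *Psmb9* was past 1.5-fold higher (145 and 237 CPM), beside 10.4 percent of all genes compared.

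**Figure D5:**
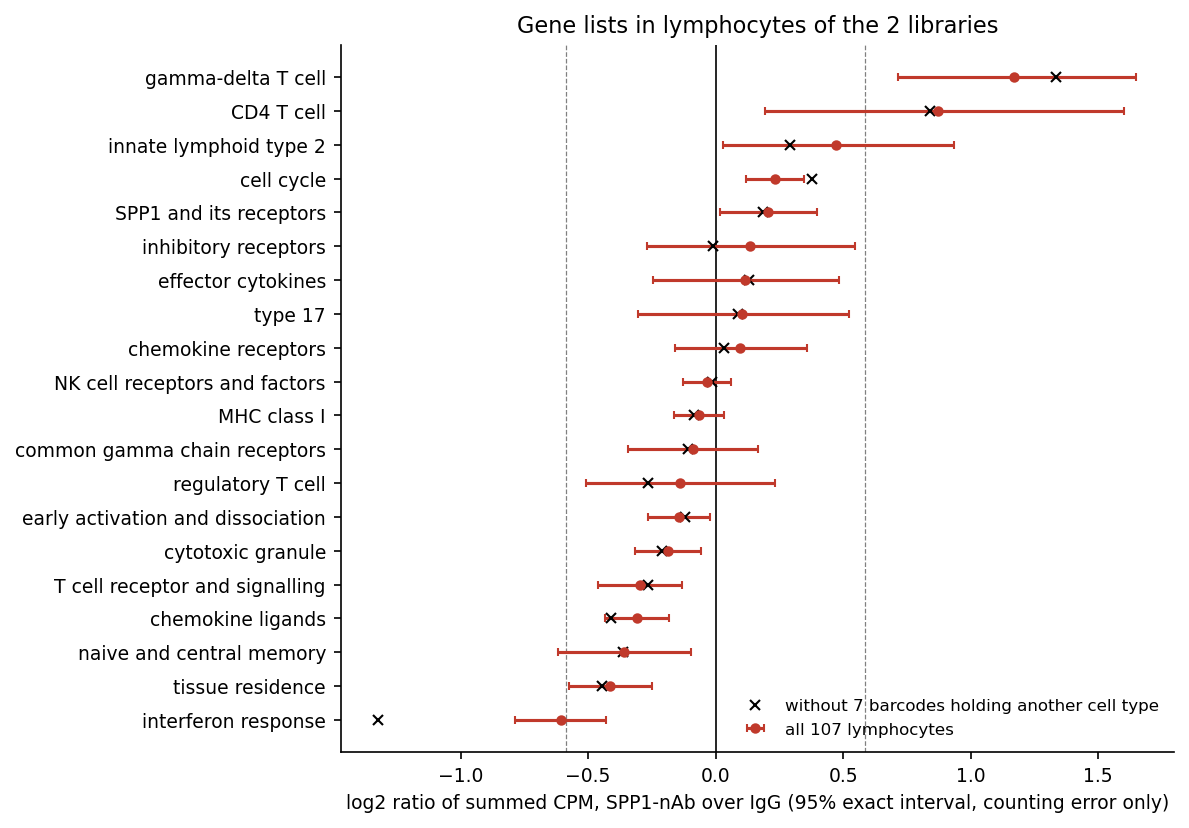
Log2 ratio of SPP1-nAb to IgG (x axis) for the summed UMIs of each gene list (y axis), with exact 95% intervals as bars. Crosses give the value without the 7 barcodes that held 20 or more UMIs of another cell type's list. Among the lymphocyte lists with UMIs in both libraries, the gamma-delta list lies farthest to the right and the interferon list farthest to the left.

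RNA of other cell types was present in some lymphocyte barcodes. MHC class II genes gave the largest ratios among genes that were lower in lymphocytes than elsewhere. *H2-Ab1* stood at 20.7 and 164 CPM and *Cd74* at 93.3 and 556 CPM, with 80 of its 183 SPP1-nAb UMIs in 1 cell. Their log2 ratios were 2.98 and 2.58, and 0.98 and 0.14 without the 7 barcodes. The dendritic list stood at 570 and 1182 CPM (log2 ratio 1.05), and at a log2 ratio of -0.58 without the 7 barcodes. The macrophage and monocyte list stood at 710 and 930 CPM, of which *Ccr2*, a gene lymphocytes also express, gave 399 and 407 CPM, with *Lyz2* at 77.8 and 82.1 CPM. *Lyz2* was found in 24.4% and 30.6% of lymphocytes and in 22.8% and 44.6% of the *Pdgfra* gate. The mesenchymal list stood at 2633 and 1681 CPM, with 508 and 553 UMIs in 10 and 18 cells and 432 in 1 IgG cell. The neutrophil list had 0 and 158 UMIs, 151 of them in 1 SPP1-nAb cell. *Cd79a* and *Ms4a1* of B cells, all 6 mast cell and basophil genes, *Sox10* of Schwann cells and *Cdh5*, *Kdr* and *Cldn5* of endothelium had 0 UMIs in both libraries. The Schwann list had 2 and 1 UMIs, the muscle list 3 and 7, and the endothelial list 7 and 33, the latter with 30 of *Pecam1*. The 7 barcodes were 2 of 45 and 5 of 62 lymphocytes and held 10.8% and 13.6% of lymphocyte UMIs. Their part in other differences between the libraries was not tested beyond the values given without them.

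Clustering of the 107 lymphocytes gave 3 clusters, each with cells of both libraries. The first held 48 cells (21 IgG and 27 SPP1-nAb) and was led by *Cxcr6*, *Ifi27l2a* and *Il7r*. Of these cells 23 were CD3+, 17 were CD3- with *Ncr1* and 8 were CD3- without it. The next held 38 cells (16 and 22), of which 2 were CD3+, and had *Klra4*, *Fasl* and *Plxnc1* among its leading genes. The last held 21 cells (8 and 13), was led by the cell division genes *Hist1h1b* and *Tpx2*, and had a median of 7682 UMIs. These genes define the clusters and are not a result of their own.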

How the data were processed

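The deposited files were 2 filtered matrices of whole-number UMI counts per gene and barcode. Per the labels the authors made them with Cell Ranger 8.0.0 (the matrix header gives 9.0.1) against GRCm39; the study's methods also name GRCm38. Its later steps (ambient RNA removal, doublet removal, integration) are not in these counts. Kept barcodes had over 200 genes and under 10% of UMIs from mitochondrial genes. The members and gene lists were chosen with earlier results of these data known.

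UMIs of members were summed per library and given as CPM. With 1 library per condition no test was run. Intervals at 95% were Clopper-Pearson for shares, exact Poisson for CPM, exact binomial for log2 ratios and combined limits for differences of shares. Genes needed 40 UMIs and 15 members. Named genes were the 10 largest and 10 smallest ratios above the level of other barcodes, the 5 largest and 5 smallest below it, the 15 leading genes and list members. The macrophage and *Pdgfra* gates (at least 2 *Pdgfra* UMIs) gave background. Doublets were scored from simulated barcodes, and the 10% highest scores were removed only as an alternative. These scores included 8 of 45 IgG and 7 of 62 SPP1-nAb lymphocytes. Median scores were 0.62 and 0.66 in lymphocytes and 0.36 and 0.44 in kept barcodes. With the highest scores removed, CD3+ cells were 8 of 37 lymphocytes with IgG and 15 of 55 with SPP1-nAb. Clusters used 2000 variable genes, 20 components, 15 neighbors and Leiden resolution 1. GENCODE gave positions for 307 of 308 listed genes. The ratio script was tested on simulated data. Tools were Python 3.11.15, NumPy 2.4.6, SciPy 1.17.1, pandas 2.3.3, scikit-learn 1.9.0, igraph 0.11.9, leidenalg 0.10.2 and matplotlib 3.10.9. Some listed genes are not reported here.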

Additional observations from a re-analysis of the deposited data

How the results depend on the processing

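No paired analysis was possible because each condition had 1 library, so leaving out a replicate was not possible either. The share of lymphocytes stayed higher with SPP1-nAb under each setting run. Of the other values, 1028 gene ratios stayed within their interval, 86 of them with the other sign, and 106 moved out of it, of which 42 had the other sign, 8 of them from a ratio past 1.5-fold. Of the ratios of lymphocyte lists 130 stayed and 30 moved. The causes were not tested, except that thinning leaves fewer UMIs and other UMI minimums test other genes.

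With at least 3 of the 7 genes the shares were 0.103% and 0.186% (IgG and SPP1-nAb), CD3- cells without *Ncr1* were 8.33% and 13.04%, and the log2 ratios were 0.13 for cytotoxic, 0.63 for type 17, 0.13 for tissue residence, 0.53 for cytokine, 0.29 for chemokine ligand and 0.18 for early activation genes and -0.0425 for *Pcna*. Without the excluding genes the SPP1-nAb share was 0.331%, and among *Ptprc* barcodes the shares were 0.309% and 0.341%.

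Thinning to 1000 UMIs gave shares of 0.135% and 0.151%, CD3- cells with *Ncr1* of 18.2% and 11.3%, without it of 63.6% and 71.0%, and CD3+ cells with *Cd4* of 0% and 3.23%. It left 43 genes higher and 27 lower of 388 tested, and log2 ratios of -0.0125 for T cell receptor, -0.25 for NK, 1.74 for CD4, -0.13 for tissue residence, 0.54 for cytokine, -0.00261 for chemokine ligand, 0.63 for cell cycle and 0.0234 for early activation genes, -0.49 for *Apoe* and for *Ctss*, 0.51 for *Fam13b* and -0.17 for *H2-Aa*.

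Removing the 10% highest doublet scores gave -0.20 for NK, -0.44 for cytotoxic, -0.66 for tissue residence, -0.89 for chemokine ligand, -1.10 for interferon, 0.37 for cell cycle, 0.0672 for early activation, -0.18 for MHC class I and 5.82 for mesenchymal genes and 0.93 for *Egr1*. The mean over cells of each cell's share gave -0.11 for chemokine ligand, -0.84 for interferon, 0.51 for cell cycle and 0.0896 for early activation genes. Equal weights of the classes gave -0.36 for interferon and -0.0139 for early activation genes. Without the 7 barcodes holding another cell type's genes, an alternative chosen after seeing the data, the ratios were -1.32 for interferon, 0.38 for cell cycle, -0.58 for dendritic and 0.60 for mesenchymal genes, -0.11 for *Ctss* and -0.34 for *H2-Aa*. A minimum of 100 UMIs gave 38 genes higher and 27 lower of 851 tested, and of 20 UMIs 550 and 381 of 3918. Leiden resolution 2 gave 10 clusters.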
